A study of Rattus norvegicus with 2 samples.

Results

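Iron and heme handling genes were read in primary rat hepatocytes cultured with or without triiodothyronine (T3), the active form of thyroid hormone. The group was set by a list of 10 gene symbols: the iron carrier transferrin (Tf), the receptors, transporters and storage proteins of iron, the hormone hepcidin, the iron oxidase ceruloplasmin and the first enzymes of heme synthesis and breakdown. Of 31038 probe sets analysed, 15 carried 1 of these symbols alone, and they represent 9 genes of the 13512 with a probe set of their own. No probe set carried Tf alone. The hepatocytes were isolated from male SD rats and grown on collagen-coated plates in a basal medium with growth factors. The control culture had no T3, and the treated culture had T3 at 1 nM for 24 h. Each group was 1 Affymetrix Rat Genome GeneChip, so no difference was tested and no p-value or replicate error is given for it. With so few arrays the spread between cultures is unknown, and this limits the precision of all values.

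Iron enters hepatocytes mainly as iron-loaded transferrin bound to its receptor, is stored in ferritin shells of heavy and light chains, and leaves through ferroportin. Hepcidin, a peptide that the liver secretes, makes ferroportin be degraded and so lowers iron release into plasma. Ferritin and transferrin receptor are controlled to a large part after transcription, by iron regulatory proteins that bind hairpins in their messenger RNA, and thyroid hormone is known to alter that binding in cultured hepatic cells. A messenger RNA level therefore covers only part of what sets the amount of these proteins. Heme is made from glycine and succinyl-CoA in steps that start with Alas1 in liver, and it is opened by heme oxygenases, which release iron.

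Messenger RNA of the iron and heme genes differed little between the cultures, and ceruloplasmin was above control in every probe set. In RNA of a whole culture, fewer cells of a type and less RNA per cell cannot be told apart. The 3 probe sets of Cp were 1.21-fold to 1.25-fold higher with T3. The divalent metal transporter gene Slc11a2 had the highest single ratio, 1.26, and the heme oxygenase gene Hmox1 the lowest, 0.868. The ferritin, transferrin receptor, ferroportin, hepcidin and Alas1 probe sets lay between 0.951 and 1.08. All 15 probe sets were called present on both arrays by the MAS5 detection call, which compares matching probes with probes that hold a mismatch, and the highest detection p-value among them was 0.0142. Past 1.5-fold, the smaller fold of the authors' deposited lists, 0 of 15 were higher and 0 were lower, where 2.43% of all probe sets were higher and 1.56% lower with a present call on the brighter array. Among probe sets present on both arrays, as all 15 were, the shares were 2.58% and 1.36%. None of the 15 stood in the 4 authors' deposited lists of changed probe sets.

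The promoters of 3 genes are shown because Cp and Slc11a2 had the highest ratios and the human hepcidin promoter is known for elements through which iron and inflammation act. Each sequence is the 250 bases before the transcription start in RefSeq, assembly GRCr8, 5′ to 3′ on the coding strand. Capitals mark letters that match 1 of 3 motifs searched on both strands: the STAT site TTCNNNGAA, the BMP-responsive element GGCGCC and the hexamer AGGTCA, which thyroid hormone receptors and related nuclear receptors bind in repeats.
Hamp, chr1:95300272-95300521, minus strand: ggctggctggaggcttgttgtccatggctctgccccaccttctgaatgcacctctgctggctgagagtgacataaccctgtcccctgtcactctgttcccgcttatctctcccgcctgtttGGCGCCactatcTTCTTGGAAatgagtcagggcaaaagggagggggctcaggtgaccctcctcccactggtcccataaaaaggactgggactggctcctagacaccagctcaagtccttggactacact
Cp, chr2:104368420-104368669, plus strand: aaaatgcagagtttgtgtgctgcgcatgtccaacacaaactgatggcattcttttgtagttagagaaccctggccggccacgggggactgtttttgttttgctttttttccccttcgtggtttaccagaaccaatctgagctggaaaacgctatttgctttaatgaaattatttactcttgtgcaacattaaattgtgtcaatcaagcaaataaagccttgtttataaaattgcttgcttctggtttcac
Slc11a2, upstream start, chr7:133418940-133419189, minus strand: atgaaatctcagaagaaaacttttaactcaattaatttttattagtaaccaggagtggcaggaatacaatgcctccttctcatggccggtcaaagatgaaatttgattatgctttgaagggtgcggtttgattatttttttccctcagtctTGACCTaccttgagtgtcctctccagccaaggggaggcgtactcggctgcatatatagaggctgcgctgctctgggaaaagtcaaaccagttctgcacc
The Hamp promoter held GGCGCC from 129 bases and TTCTTGGAA from 117 bases before the start. The Slc11a2 promoter held the hexamer on the opposite strand, as TGACCT, and a promoter at a downstream start of the same gene held none of the 3 motifs. None of the 3 motifs was found in the Cp window. Of 33469 rat promoters of this length, 7.67% held the STAT site, 8.69% GGCGCC and 14.1% the hexamer, and the motifs did not overlap in the promoters shown. Promoters were found for 7 of the 10 genes, all but Fth1, Ftl1 and Hmox1. Besides those shown, the Alas1 promoter held a STAT site, that of Tfrc GGCGCC and that of Tf the hexamer. A match of letters is a description of the sequence and does not show that a factor binds there.

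Both iron storage genes were slightly below control, Ftl1 in all scalings tried except quantile normalization, under which Fth1 was almost level. Fth1, the ferritin heavy chain with the ferroxidase activity that loads iron, had a MAS5 signal of 3899 without and 3709 with T3, a ratio of 0.951. Ftl1, the light chain that supports the mineral core, had signals of 3604 and 3477, a ratio of 0.965. Both probe sets were among the brightest on the arrays. In place of a replicate error, each ratio was set beside those of the 500 probe sets nearest in mean signal and present on both arrays. For both ferritin chains the central 95% of these ran from 0.875 to 1.12 with a median of 0.976, so that bright probe sets as a whole lay a little below 1. The ferritin chains stood at percentiles 25.2 and 38.2 of them. After quantile normalization the log2 ratio of Ftl1 turned from -0.05 to 0.0094, and that of Fth1 went from -0.07 to -0.0031.

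Genes of iron uptake split between the transferrin receptor, which was near control, and the divalent metal transporter, which was above it. Tfrc, which binds iron-loaded transferrin and carries it into endosomes, had signals of 525 and 542 in its brighter probe set, a ratio of 1.03. Its other probe set gave 184 and 181, a ratio of 0.982, so the probe sets lay on either side of 1. Both were well inside the central 95% of probe sets of like signal, at percentiles 66.4 and 45.6.

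Slc11a2 encodes DMT1, the proton-coupled transporter that moves ferrous iron out of endosomes. Its brighter probe set read 114 and 144, in control and treated cells, for a ratio of 1.26. The central 95% of ratios at that signal reached 1.32, and the probe set was at percentile 95. The other probe set read 74.4 and 81.8, a ratio of 1.10 at percentile 78.2. Both probe sets were thus above control, by 26.2% and 9.93%, and both lay within the spread of probe sets of like signal.

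Tf could not be read alone. The 2 probe sets that carry its gene number also carry that of Srprb, a subunit of the signal recognition particle receptor, and their signal cannot be assigned to either gene. The bright shared probe set read 2826 and 2736, a ratio of 0.968. The dim shared probe set read 23.0 and 16.5, a ratio of 0.716, where the central 95% of like probe sets ran from 0.628 to 1.80. These are not counted among the 15.

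**Figure D1:**
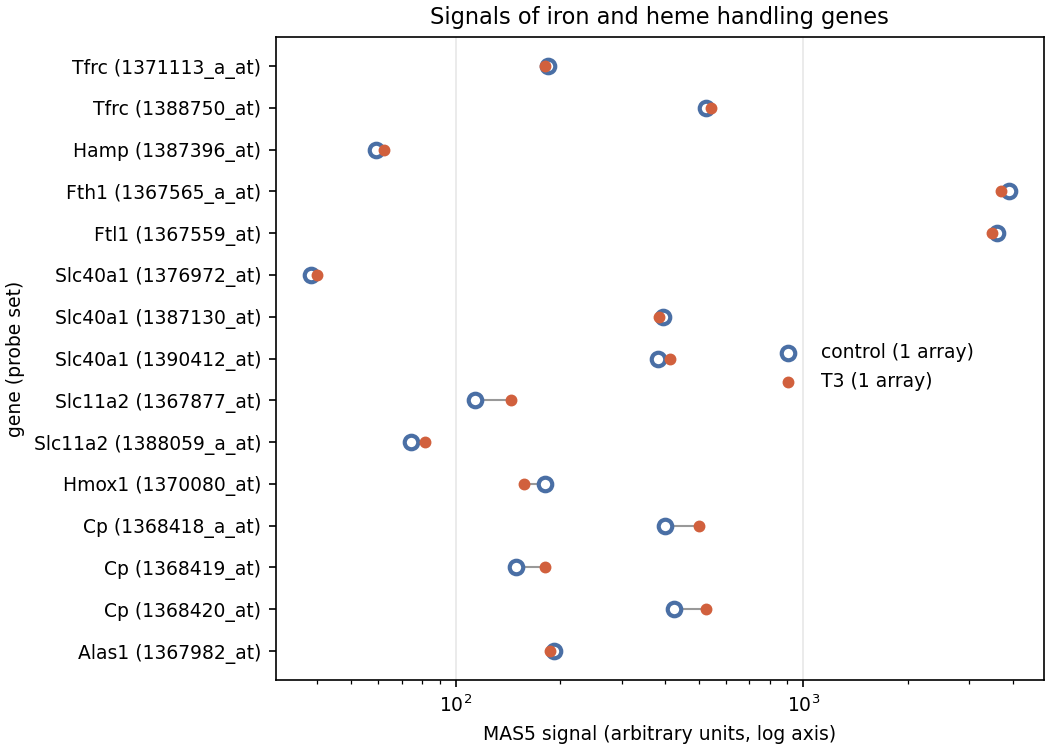
MAS5 signal (arbitrary units, log axis) of the 15 probe sets of iron and heme handling genes, with 1 open circle for the control array and 1 filled circle for the T3 array. The circles nearly coincide for most probe sets, and the T3 circle is to the right of control in all 3 Cp and both Slc11a2 probe sets and to the left in Hmox1. Signals of different probe sets are not comparable as amounts of RNA.

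Export genes differed between the transporter and the oxidase. Slc40a1 encodes ferroportin, the only known cellular iron exporter, and its brightest probe set read 383 without and 412 with T3, a ratio of 1.08. A probe set of similar signal read 395 and 385, a ratio of 0.974, and the dim one read 38.3 and 39.9, a ratio of 1.04. The probe sets lay on both sides of 1 and ranged over 0.15 on the log2 scale. All 3 were inside the spread at their signal.

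Cp encodes ceruloplasmin, the copper-bearing plasma ferroxidase that hepatocytes secrete and that oxidises exported iron so that transferrin can take it up. Its probe sets read 425 and 525 (ratio 1.23), 400.5 and 501 (ratio 1.25) and 149.6 and 180.4 (ratio 1.21). They ranged over only 0.05 on the log2 scale. The ratios of the brighter pair were at percentiles 98.0 and 98.2 of like probe sets and lay above the central 95%, which ended at 1.21 and 1.22. The dimmer one was at percentile 95.8, just below the upper end of 1.23. Over all probe sets present on both arrays 2.60% lay above this range and 2.67% below it, against 2 of the 15 iron and heme probe sets above and 0 below. The 3 Cp probe sets read the same RNA on the same arrays, so their closeness says nothing of how cultures vary. Across 6 alternatives, the log2 ratio of Cp ran from 0.19 to 0.33. They were other scalings, pseudocounts and the series value table, which gave unchanged values.

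**Figure D2:**
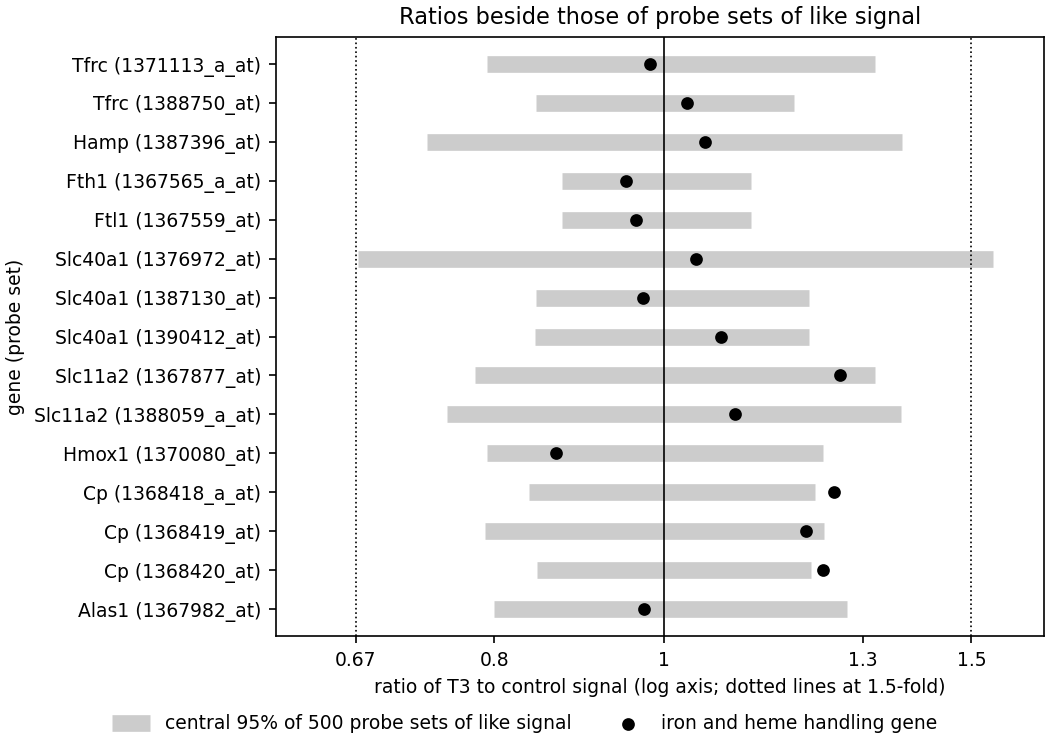
Ratio of T3 to control signal (log axis) of the 15 iron and heme probe sets as points, with grey bars for the central 95% of ratios of the 500 probe sets of like signal and dotted lines at 1.5-fold. Only the brighter pair of Cp probe sets, at 1.25 and 1.23, lies beyond the bars, and no point reaches 1.5-fold.

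Hepcidin was near control. Hamp read 59.0 and 62.4, a ratio of 1.06, at percentile 64.8 of probe sets whose central 95% ran from 0.732 to 1.37. That range describes other probe sets on the same arrays at this modest signal. With 1 array per group, the smallest difference in Hamp that could be told from variation between cultures is unknown. The gene was called present on both arrays.

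Both heme genes were below control, Alas1 by little and Hmox1 by more. Alas1, the rate-limiting enzyme of heme synthesis in liver, read 192 and 187, a ratio of 0.975 at percentile 40.4. Hmox1, the inducible enzyme that opens the heme ring to biliverdin, carbon monoxide and iron, read 181 and 157, a ratio of 0.868. That was at percentile 12.0 of like probe sets, whose central 95% ran from 0.793 to 1.23. Hmox1 was the lowest of the 15 and was inside that range.

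Over the 9 genes, each by its brightest probe set, 5 were above and 4 below control, and the median log2 ratio was 0.05. Over all 9671 genes detected and represented in that way the median was 0.0004, with 50.1% above 0. By single probe sets, 9 of the 15 were above and 6 below control. In the 5 genes with 1 probe set no second reading was available. Of the other 4, Cp and Slc11a2 had every probe set above control, while Tfrc and Slc40a1 had probe sets on both sides.

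**Figure D3:**
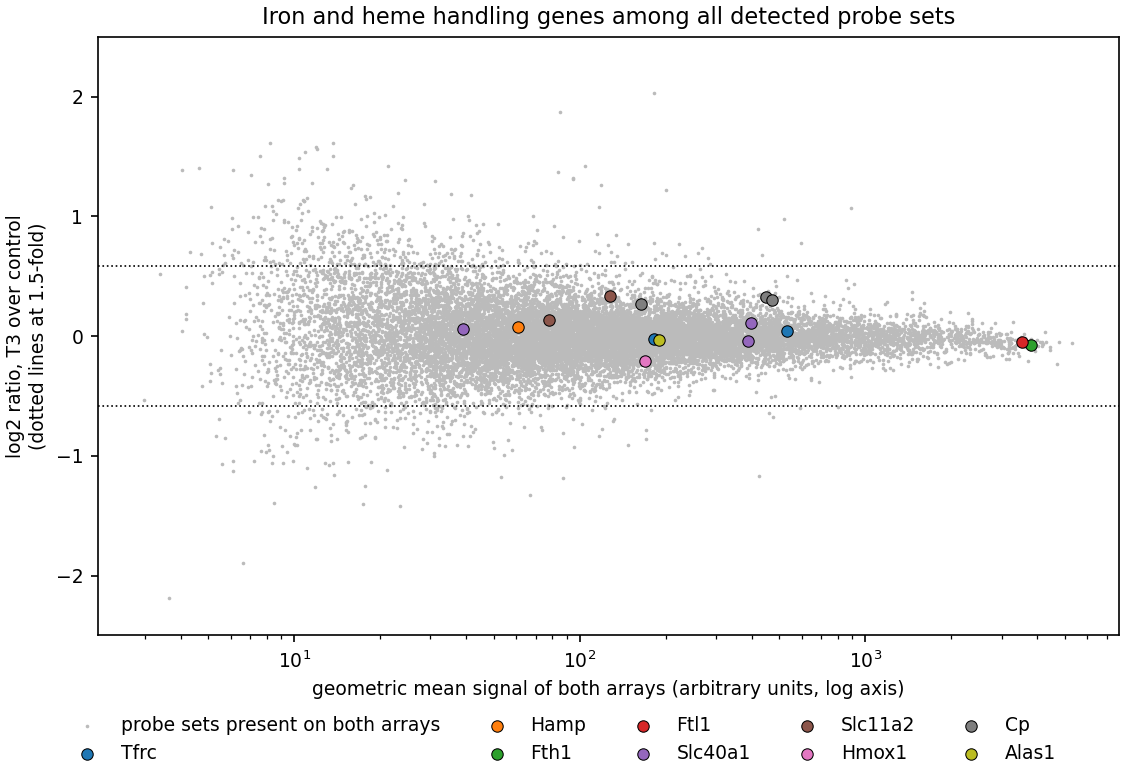
Log2 ratio of T3 to control (vertical axis, dotted lines at 1.5-fold) against the geometric mean signal of both arrays (arbitrary units, log axis) for 16524 probe sets present on both arrays in grey and the 15 iron and heme probe sets in colour. The grey cloud narrows with signal. Cp sits in its upper part, with some grey points of like signal above it, and the ferritin chains sit at the bright end near 0.

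A wider set of 107 iron and heme genes in 6 lists, the 10 named genes not included, showed how the rest of these pathways stood. Of these, 96 had a probe set of their own and 87 were detected on at least 1 array. Past 1.5-fold, 2 of the 87 were higher (2.30%) and 2 lower (2.30%), where 2.81% of all genes were higher and 1.68% lower. The median log2 ratio was 0.04, and 49 genes were above and 38 below 0. These shares are near those of all genes.

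Among 18 detected genes of iron uptake and transport, 13 were above 0, where 50.1% of all genes were, and the median log2 ratio was 0.14. The share past 1.5-fold was 1 of 18 higher (5.56%) and 0 lower, where 2.81% of all genes were higher and 1.68% lower. Hp, haptoglobin, which binds free hemoglobin, read 447 and 634, a ratio of 1.42, above the central 95% of like probe sets, which ended at 1.19. Lcn2, lipocalin 2, which binds iron-carrying siderophores, read 1286 and 1657, a ratio of 1.29, above an end of 1.13. Hpx, hemopexin, the plasma heme carrier, read 2257 and 2490, a ratio of 1.10, inside an end of 1.13. Tfr2, the hepatic transferrin receptor that senses plasma iron, read 28.7 and 41.2, a ratio of 1.44, inside a range that ended at 1.59. Steap3, an endosomal iron reductase, was the lowest, with 86.5 and 65.6 and a ratio of 0.759, inside a range that began at 0.733. Cd163, the hemoglobin-haptoglobin receptor of macrophages, was past 1.5-fold from signals of 4.79 and 7.64, and inside the spread of such dim probe sets.

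Among 22 detected genes of hepcidin regulation, 14 were below 0 and the median log2 ratio was -0.10. Past 1.5-fold, 2 of the 22 were lower (9.09%) and 0 higher, where 1.68% of all genes were lower and 2.81% higher. Gdf15, a stress-induced cytokine of the TGF-beta family, read 69.2 and 36.2, a ratio of 0.523, below the central 95% of like probe sets, which began at 0.713. Bmp6, the ligand through which iron stores raise hepcidin, read 14.7 and 9.33, a ratio of 0.634, inside a range that began at 0.555. Its other probe sets were absent on both arrays. Neo1, a coreceptor of BMP signalling, had ratios of 0.939 in its brightest probe set and 0.651 in another, which read 64.3 and 41.8 and lay below a range that began at 0.693. The receptor-regulated Smad1 (514 and 479) and the hepatic transcription factor Creb3l3 (470 and 423) were a little below control, with ratios of 0.931 and 0.901. On the interleukin-6 side, Stat3 read 708 and 721, a ratio of 1.02. Il6st, the signalling chain gp130, read 264 and 329, a ratio of 1.25. The hepcidin gene itself stood at 1.06.

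Of the wider genes of iron storage and sensing 0 of 9 were past 1.5-fold. Ratios ran from 0.986 in Pcbp2 to 1.21 in Arnt, the partner of Hif1a, and the median log2 ratio was 0.06. Pcbp1 and Pcbp2 encode chaperones that deliver iron to ferritin, and Pcbp1 read 1131 and 1128, a ratio of 0.997. Hif1a, the oxygen-regulated transcription factor, read 1065 and 1113. The iron regulatory proteins, which bind ferritin and transferrin receptor messenger RNA, are encoded by Aco1 and Ireb2. Aco1 read 545 and 629, a ratio of 1.15, and Ireb2 read 223 and 226 in its brighter probe set, a ratio of 1.01.

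In heme synthesis 1 of 14 detected genes was past 1.5-fold higher (7.14%) and 0 lower, where 2.81% of all genes were higher and 1.68% lower. Of the 14, 7 were above and 7 below 0. Uros, uroporphyrinogen III synthase, read 7.81 and 23.8, a ratio of 3.05, beyond the central 95% of like probe sets, which ended at 1.86. It is a single dim probe set, present on both arrays, and the authors' deposited table of probe sets at least 2-fold higher holds it. Other enzymes of the pathway were near control. Alad read 390.3 and 377.5, a ratio of 0.967, and Cpox read 430 and 413, a ratio of 0.960. Pgrmc1, a heme-binding membrane protein, read 2252 and 2240. Abcb10, a mitochondrial inner membrane transporter, was the lowest at 0.886. The median log2 ratio of the list was 0.04. The erythroid isoenzyme Alas2 was absent on both arrays.

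In heme degradation and its control 0 of 6 detected genes were past 1.5-fold, and 5 were above 0. Nfe2l2, which encodes NRF2, the main activator of Hmox1 under oxidative stress, read 1449 and 1547, a ratio of 1.07. Its inhibitor Keap1 was at 1.12 in its brighter probe set. The other read 52.3 and 46.5, a ratio of 0.890, and both were inside the spread of like probe sets. The NRF2 targets Nqo1 and Gclm were at 0.971 and 1.05, where Hmox1 was at 0.868. Hmox2, the constitutive heme oxygenase, read 250.1 and 273.9, a ratio of 1.10, and a dim probe set of it was at 1.68 from signals of 10.6 and 17.8.

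In iron-sulfur cluster assembly 0 of 18 detected genes were past 1.5-fold, 9 were above and 9 below 0, and the median log2 ratio was 0.0088. Iscu, the scaffold on which clusters are built, read 745 and 892, a ratio of 1.20, above a central 95% that ended at 1.17. Ciapin1, of the cytosolic assembly pathway, was the highest at 1.27, also above its range, which ended at 1.21. Hspa9, the mitochondrial chaperone that helps transfer clusters, was the lowest, with 775 and 689 and a ratio of 0.889, inside a range that began at 0.864. Another probe set of Hspa9, present on both arrays, read 481 and 389. Its ratio of 0.809 lay below its range, which began at 0.847. Fdx1, a mitochondrial ferredoxin, read 991 and 988.

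**Figure D4:**
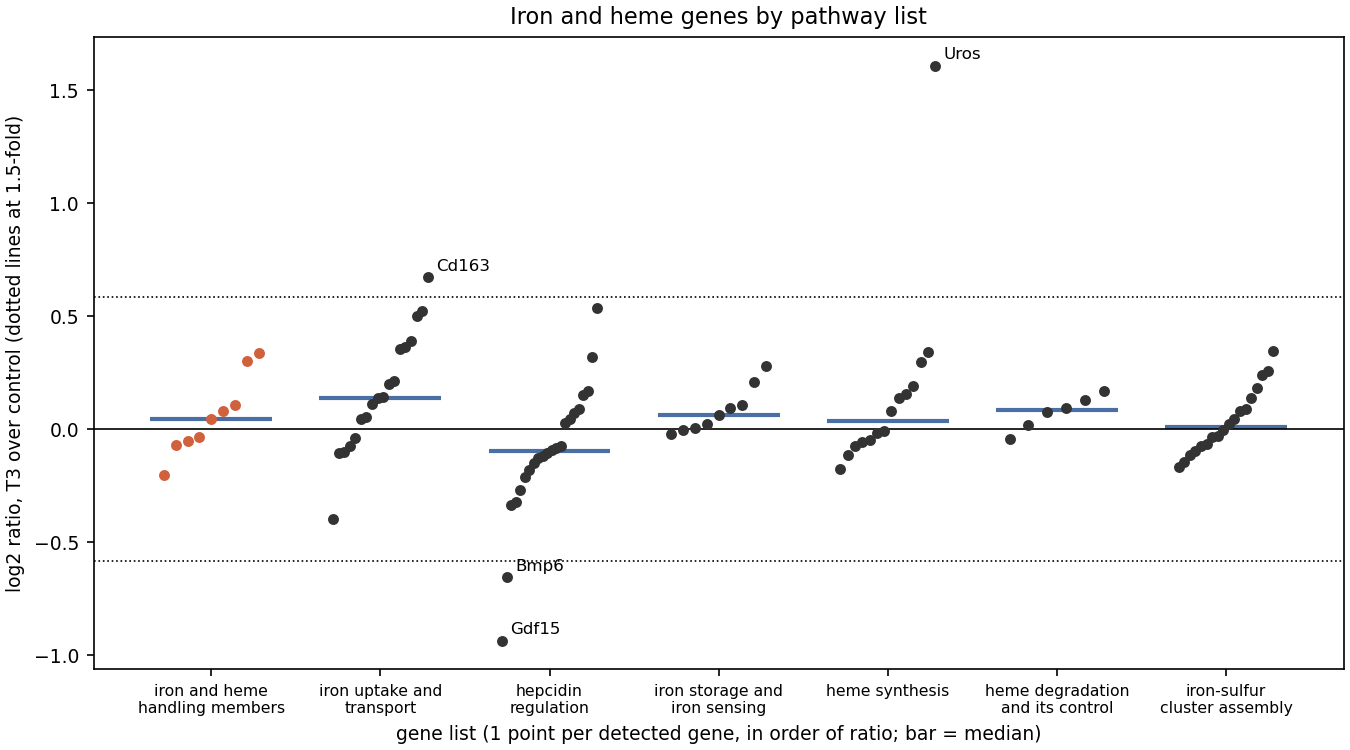
Log2 ratio of T3 to control (vertical axis, dotted lines at 1.5-fold) for each detected gene by its brightest probe set, in the 9 iron and heme handling genes (red) and 6 wider lists, with a blue bar at each median. The 4 genes past 1.5-fold are named: Uros and Cd163 above, Bmp6 and Gdf15 below.

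The labelled cell type was checked against its markers. All 8 hepatocyte markers were detected, from Asgr1, the asialoglycoprotein receptor, at 13.6 and 12.3 to Alb, albumin, at 3972 and 3449. The Alb ratio of 0.868 was below the central 95% of like probe sets, which began at 0.876, and 5 of the 8 markers were below 0. Another bright Alb probe set read 3418 and 2994, a ratio of 0.876, just inside its range, which began at 0.875. Of other genes known from hepatocytes, Fabp1 in the list of heme degradation and Cebpa in that of hepcidin regulation were absent on both arrays. Of the macrophage markers with a probe set 1 of 6 was detected, Cd163. None of 5 endothelial and none of 5 erythroid markers with a probe set was detected, Hbb among them. Of 6 stellate cell markers 5 were detected, 2 above and 3 below 0. Their summed signal of 588 and 585 was mostly that of Reln (417 and 389) and hides opposite differences. Lrat read 13.8 and 7.32, a ratio of 0.532, past 1.5-fold lower, while Des and Acta2 were at 1.22 and 1.21. Of 5 bile duct markers 3 were detected, Krt19, Krt7 and Epcam, at a summed signal of 2805 and 2457. Their part in the differences above was not tested. The T3 responses of Pck1 (44.5 and 162) and Klf9 (309 and 575), known thyroid hormone targets, were larger than that of any of the 15 iron and heme probe sets, and Thrsp read 34.2 and 51.2.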

How the data were processed

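RNA of 1 control and 1 T3 culture was measured on 2 arrays. The authors deposited an intensity per probe set and array, per the file headers a normalized MAS5 signal, with a MAS5 detection p-value and call, and the ratio of T3 to control intensity. Affymetrix Expression Console is named in the submitters' processing notes, with a version not given in the sources used here. The arrays had equal trimmed means of 100.04, so the intensities had been scaled before deposit. That scaling hides any change in total RNA. Here 57 control probe sets were left out, and log2 ratios were computed without a pseudocount (Python 3.11.15, pandas 2.3.3), with calculations tested on simulated data. Iron and heme handling genes were taken by the symbol in the file. Other genes were named by gene number through GRCr8, and the brightest probe set present on at least 1 array stands for each. The genes and lists were chosen with earlier results of these data known. Named from each wider list were genes past 1.5-fold, the 3 brightest, and the highest and lowest present on both arrays. Tfr2, Aco1, Ireb2, Neo1, Fabp1, Cebpa, Hmox2 and Alas2 were added after their values were seen. So were Il6r, Jak2, Bmp4, Smad5, Bmpr1a and the other probe sets of Alb, Bmp6, Hspa9 and Keap1. The single stellate cell markers were also named after that. With 1 array per group there is no test. Alternatives were pseudocounts of 16 and 64, other normalizations, other detection rules, other probe sets per gene and the series value table.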

Additional observations from a re-analysis of the deposited data

How the results depend on the processing

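In all alternatives tried for it, the count of iron and heme probe sets past 1.5-fold stayed at 0 higher and 0 lower. The median log2 ratio of the 9 genes, 0.05, ran from 0.0098 to 0.05 over 10 alternatives; the minimum signal described below leaves out Hamp, and the median of the remaining 8 genes was 0.0043. Of 90 alternative values of single probe sets, 90 moved by less than the spread (SD) of like probe sets, and 1 crossed 0, that of Ftl1 under quantile normalization. The series value table gave the same values as the main reading, so those could not move. That SD is of other probe sets on the same arrays and does not measure repeat error, so the count of 90 is a description only. The counts of the 87 wider pathway genes, 2 higher and 2 lower, changed with the treatment of dim probe sets and with the probe set taken per gene: a pseudocount of 16 gave 1 and 1, a pseudocount of 64 gave 0 and 0, a minimum geometric mean signal of 104 (the median of probe sets present on both arrays), which leaves fewer genes, gave 0 and 0, and no detection filter, which counts all 96 genes with a probe set, gave 4 and 4. The detected probe set of largest absolute change per gene gave 3 and 3. The higher count was 1 under quantile normalization and 1 under loess. Pseudocounts shrink, and filters remove, ratios of dim probe sets by construction; for the normalizations the cause was not tested. No paired analysis was possible because each group has 1 array.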

Other observations

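Beyond the lists, the annotation in the deposited table gives a wider view of iron proteins, chosen after seeing the data. Of 118 detected genes annotated to iron ion binding, other than the 9 iron and heme handling genes, 6 were past 1.5-fold higher (5.08%) and 4 lower (3.39%), with a median log2 ratio of 0.02, where 2.81% of all genes were higher and 1.68% lower. Among the higher ones, Bco1, the iron enzyme that cleaves beta-carotene, read 92.0 and 149, a ratio of 1.62. Miox, the iron oxygenase of inositol breakdown, read 36.3 and 62.7, a ratio of 1.73. Cybrd1, a ferric reductase, read 7.24 and 15.9, a ratio of 2.19. The others were the guanylate cyclase subunit gene Gucy1b1 at 1.64, from signals of 4.82 and 7.92, and cytochrome P450 genes. Of these, Cyp2c22 read 56.8 and 85.5 and Cyp2e1 read 13.7 and 20.8, at log2 ratios of 0.59 and 0.61. The 4 lower ones were also P450 genes, of which Cyp27b1, the vitamin D hydroxylase, read 18.4 and 7.65. Cyp2g1, Cyp3a18 and Cyp3a23-3a1 were absent with T3 and had control signals of 5.99, 6.37 and 7.10. At such signals, and at those of Cybrd1, Gucy1b1 and Cyp2e1 among the higher genes, the size of the differences is uncertain. Of 51 detected genes annotated to heme binding, 3 were higher (5.88%) and 4 lower (7.84%), where 2.81% and 1.68% of all genes were. All of them are among the genes just named, most of them dim. Genes annotated to iron ion transport had 0 of 13 past 1.5-fold, and those annotated to cellular iron ion homeostasis 0 of 10.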
